A study of Macaca mulatta with 32 samples.

Results

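Circular RNAs (circRNAs) of the temporal cortex (TC) of the rhesus macaque were compared with those of the other sampled neocortex. The samples were chosen by their area alone. Of 32 RNase R-treated libraries in the series, the 4 labelled TC were set against 16 from the prefrontal cortex (PFC), posterior cingulate cortex (PCC), parietal cortex (PC) and occipital cortex (OC), 4 from each area, and the hippocampal and cerebellar libraries were not used. Each area was sampled in the same animals, and its RNA was mixed into 4 pools, each of 2 animals of one sex and age. The pools are named 10F and 10M for females and males aged 10 years, and 20F and 20M for those aged 20 years. TC was taken from the superior temporal gyrus, PFC from around the main sulcus, PCC from Brodmann area 23, PC from beside the middle Sylvian fissure and OC from the primary visual cortex. The 4 TC libraries thus hold 8 animals in 4 pools, and p-values measure the spread between pooled libraries rather than between single animals.

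A circRNA forms when the spliceosome joins the end of an exon to the start of an exon that lies before it, so that the transcript closes into a ring and shows as a read across a back-spliced junction. Such rings lack free ends, resist the exonuclease RNase R and are slowly degraded, and neurons hold many of them, often from genes of the synapse. The superior temporal gyrus carries auditory and association cortex, and like all neocortex it is built of layered excitatory neurons, inhibitory neurons and glia.

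Values are given in TPM as deposited, in which 1 back-splice read was worth between 0.306 and 5.15 TPM depending on the library. The TC libraries held between 58037 and 195477 back-splice reads, against 78611 to 894932 in the other 16 libraries. The shallowest of all 20 libraries was TC of pool 10M. No value of a single read was listed, so that the lowest level that could appear in TC was 2.36 TPM in pool 20F and 10.3 TPM in pool 10M. A level listed as 0 in TC can therefore be a low level. Abundant circRNAs were also listed at 0 in deep libraries, however. That of WDR41 was at 0 in PCC of pool 20F, which held 894932 reads, and at 3257 TPM in OC of pool 20M. The cause of such zeros was not tested. The part of depth in the results that follow was not tested beyond the values given when every library was drawn down to 58037 reads.

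The study listed circRNAs of 4 host genes as enriched in TC, and it designed primers for each of them. The ring meant for each gene was taken from the position listed beside the primers, and its level is given further on. The primers are shown as the study listed them. They are written 5′ to 3′, the forward primer first.
AKAP13 forward: atccgccatttcctctccatt
AKAP13 reverse: gtccagtgaagccgtgtca
DENND1A forward: ggttctgccgcttatcttca
DENND1A reverse: actgtgaggctgtccatataga
GRK4 forward: tgaggaccgaagtgattatgga
GRK4 reverse: cacagaactgcctgaagagaag
TBC1D19 forward: ggactggaagaatatgctgtct
TBC1D19 reverse: ggcgaggcactgttgtatg

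Few circRNAs separated TC from the rest of the neocortex. Of 9342 circRNAs tested, 3 (0.0321%) passed the threshold of an adjusted p under 0.05 in limma, 1 (0.0107%) higher and 2 (0.0214%) lower in TC. The higher one came from NINL, whose protein organises microtubules at the centrosome. The lower ones came from SASH1, which encodes a scaffold protein of signalling complexes, and STK39, which encodes a kinase that acts on chloride cotransporters. At an unadjusted p under 0.05 there were 376 higher (4.02%) and 259 lower (2.77%) circRNAs, 6.8% of those tested in sum. Only 10 of the tested circRNAs reached the filter of 3 reads in fewer than 2 libraries outside TC. Those that reached it in 2 or 3 libraries outside TC also needed TC to be tested, and they were not counted. The number called rested on single libraries and pools. Without the TC library of pool 10F or of pool 20F it was 8, without either of the other TC libraries it was 2, and without all libraries of pool 10M it was 0, of pool 20F 1 and of pool 10F 5.

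The NINL circRNA (chr10:58703646-58704385, exonic, a distance of 740 bases between the joined ends) stood at 61.2 TPM in pool 10F, 56.6 in 10M, 30.7 in 20F and 46.4 in 20M of TC. In the other 16 libraries it ranged from 0 to 11.4 TPM with a median of 0, and it was found in 5 of them. Every TC library was thus above every other library, although the TC libraries held fewer reads than most. These values were 39, 11, 26 and 32 back-splice reads in TC and at most 15 elsewhere. The means were 48.7 ± 13.5 TPM (SD, n = 4) in TC and 2.68 ± 4.23 TPM (SD, n = 16) in the others. On the scale of log2(TPM + 1.775), which is used for all log2 differences and understates changes of low levels, NINL was higher by 4.00 ± 0.71 (SE, limma adjusted p = 0.0132). PFC and OC had 4.44 and 4.74 TPM on average, PC had 1.56, and PCC had none listed. The call was lost without the TC library of pool 10M (adjusted p = 0.0575) or of pool 20M (0.0534), without any of the 4 pools (0.0855 to 0.108), and after reads were drawn to equal depth (0.0963). The log2 difference stayed at 3.83 to 4.11 without a pool and was 4.16 at equal depth. The other 6 circRNAs of NINL summed to 10.7 ± 14.1 TPM in TC and 19.02 ± 14.7 in the others, a difference within the spread between libraries (exact permutation p = 0.332, two-sided). Such sums were tested for every named circRNA whose gene had others, without adjustment, so some small p can arise by chance. Beyond the called circRNAs and the candidates of the study, they are printed mainly where p was small, after the values were seen.

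The SASH1 circRNA (chr4:114820915-114840557, exonic) was lower in TC. It was at 15.7 TPM in pool 10F and 8.70 TPM in pool 20M, and was listed at 0 in pools 10M and 20F. The other 16 libraries had between 31.3 and 176 TPM with a median of 87.0. No TC library reached the lowest of the others. The log2 difference was -4.17 ± 0.67 (SE, limma adjusted p = 0.0058). OC, at 54.9 ± 23.3 TPM (SD, n = 4), had less than PFC, PCC and PC, which lay between 105 and 120 TPM, and all were above TC with its 6.10 ± 7.60 TPM. The call was kept at equal depth (adjusted p = 0.00291) and was lost without the TC library of pool 10M (0.0573) and without all libraries of pool 10M (0.101) or of pool 20F (0.0877). The other 12 SASH1 circRNAs had 20.3 TPM in TC and 54.3 in the others, a difference within the spread (exact permutation p = 0.119, two-sided).

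The STK39 circRNA (chr12:31639015-31754904, exonic) was listed at 0 in 3 TC libraries and at 212 TPM in pool 10F. The other libraries ranged from 0 to 773 TPM with a median of 398, and it was found in 15 of 16. The groups therefore overlapped, and TC of pool 10F was within the range of the others. The log2 difference was -5.67 ± 1.12 (SE) with a limma adjusted p of 0.0499, which stood at the threshold. It passed no longer without the TC library of pool 10M, 20F or 20M (0.170 to 0.172), without all libraries of pool 10M (0.347) or of pool 20F (0.378), and at equal depth (0.0963), where the log2 difference was -5.85. It was stronger without the TC library of pool 10F (0.00123). The 34 other circRNAs of STK39 pointed the same way, with 864 TPM in TC and 1475 in the others (exact permutation p = 0.0318, two-sided, unadjusted).

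**Figure D1:**
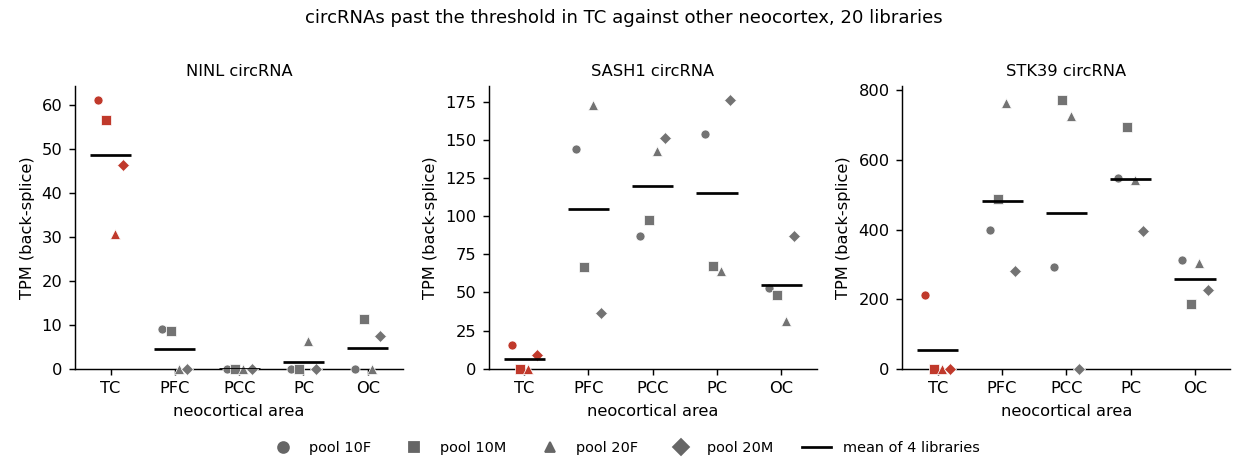
Level in TPM (linear axis from 0) of the NINL, SASH1 and STK39 circRNAs in each of the 20 libraries by area, with TC in red, marker shapes for the 4 pools and a bar for the mean of 4 libraries. NINL lies between 30.7 and 61.2 TPM in TC and at most at 11.4 TPM elsewhere, SASH1 is at most 15.7 TPM in TC, and STK39 is at 0 in 3 TC libraries.

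**Figure D2:**
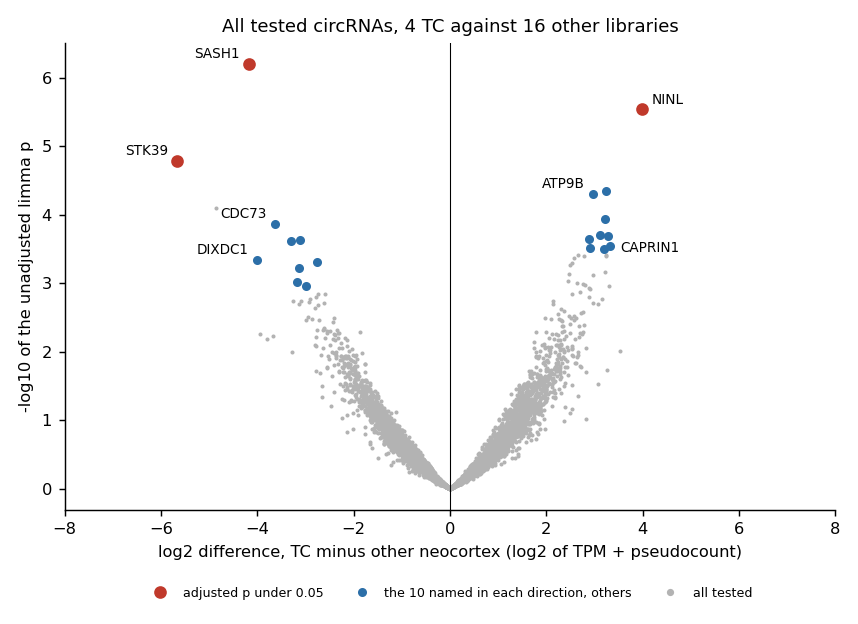
Log2 difference between TC and the other neocortex (horizontal axis) against -log10 of the unadjusted limma p (vertical axis) for all 9342 tested circRNAs. The 3 past the threshold are red, and the remaining named circRNAs are blue, the 10 with the smallest p in each direction that held in all 4 pools. SASH1 and STK39 on the left and NINL on the right stand apart from the cloud.

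The other 9 circRNAs with the smallest p among those higher in TC in all 4 pools did not pass the adjusted threshold, with limma adjusted p between 0.0921 and 0.178. Their mean levels in TC were low, from 16.7 to 50.5 TPM. They came from AKAP13 (an anchor of protein kinase A that also activates RhoA), ATP9B (a P4-type ATPase of the Golgi), PLXNA1 (a semaphorin receptor), VPS53 (a subunit of a tethering complex that returns vesicles to the Golgi), LARGE (a glycosyltransferase of dystroglycan), CAPRIN1 (an RNA-binding protein of stress granules), PLCB1 (a phospholipase C), the unnamed gene ENSMMUG00000020606 and an intergenic stretch (chr11:31752164-31753761). LARGE (chr10:77653271-77653458) was at 64.3, 41.2, 60.2 and 36.2 TPM in pools 10F, 10M, 20F and 20M, and at 0 to 18.8 TPM elsewhere, a log2 difference of 3.27 ± 0.78 (SE, limma adjusted p = 0.175). PLCB1 (chr10:41970937-41974274) was even across TC, with 37.7, 30.9, 30.7 and 36.2 TPM in the same order, and ranged from 0 to 25.6 TPM elsewhere (3.21 ± 0.80, adjusted p = 0.178). Neither overlapped with the other areas. The remaining 14 circRNAs of PLCB1 lay the other way, with 1.18 TPM in TC and 26.9 in the others (exact permutation p = 0.0448, two-sided, unadjusted). ATP9B (chr18:72465548-72587246) was found in all 4 TC libraries, at 6.28 to 29.0 TPM, and in 1 of the 16 others, at 16.9 TPM. It is one of the 10 circRNAs that met the filter mostly through TC, where it was high, so its p is no support for a difference. PLXNA1 and ENSMMUG00000020606 were each found in only 3 of the 16 others. They met the filter of 4 libraries only with TC counted, so their p are no support either.

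The 8 further circRNAs lower in TC in all 4 pools had limma adjusted p between 0.158 and 0.279. They came from CDC73 (a subunit of the PAF1 complex of transcription), DLG1 (a scaffold of the synapse), CTAGE5 (a protein of exit sites of the endoplasmic reticulum), DIXDC1 (a component of Wnt signalling), KHDRBS3 (an RNA-binding regulator of splicing), SLC25A26 (the mitochondrial carrier of S-adenosylmethionine), ANKRD32 and BRWD1 (a bromodomain protein). The pattern in TC was patchy. CDC73 (chr1:177355991-177358508) was at 89.4 TPM in pool 10F and 50.7 in 20M and listed at 0 in 10M and 20F, against 19.1 to 427 TPM elsewhere. DLG1 (chr2:188300486-188314780) was at 50.2 TPM in pool 10F and 35.4 in 20F and listed at 0 in both male pools, against 24.8 to 164 TPM. CTAGE5 (chr7:102273853-102274659) was the only one of them listed at 0 in all 4 TC libraries, and it was found in 14 of the 16 others with a median of 17.4 and a maximum of 68.1 TPM. Of the 9342 tested circRNAs, however often found elsewhere, 2124 were found in no TC library. Values of 0 made up 59.7% of those in TC and 51.6% of those in the other libraries. DIXDC1 (chr14:110450364-110452109) was at 132 and 25.7 TPM in the pools aged 10 years and listed at 0 in both pools aged 20 years, against a median of 223 TPM elsewhere. All 8 overlapped with the other areas, and in each of them at least 2 TC libraries were listed at 0. The TC library of pool 10F held the highest TC value of CDC73, DLG1, DIXDC1 and SLC25A26 and the lowest of PLXNA1. Without it, CDC73 (limma adjusted p = 0.0265), DLG1, DIXDC1 and SLC25A26 (0.0463 each) passed as lower, beside NINL, SASH1 and STK39. PLXNA1 passed as higher (0.0469), but it met the filter only with TC counted, so this p is no support for a difference.

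The exact permutation test of the difference in mean TPM, two-sided over all 4845 choices of 4 of the 20 libraries, was also run on the same circRNAs. At p under 0.01, the threshold the study used for areas, 181 circRNAs (1.94%) were higher and 4 (0.0428%) lower in TC, 1.98% in sum, and at an adjusted p under 0.05 there were 0, with 690 at an unadjusted p under 0.05. The balance of the directions depended on the scale and the normalization. The same test gave 79 higher and 34 lower on log2 values, and 121 higher and 11 lower with the same total in every library. For 16 circRNAs (0.171%) all 4 TC libraries lay above all 16 others, which gives the smallest p these choices allow, 0.000206, and for 2 (0.0214%) all lay below. Besides NINL, LARGE, AKAP13, PLCB1 and GRK4, the higher ones came from DLG2 (a scaffold of the postsynaptic density), AP3D1 (a subunit of the AP-3 vesicle coat), RQCD1 (a subunit of the CCR4-NOT complex that removes poly(A) tails), GTF2I (a transcription factor), ATXN10, UBE2F (an enzyme that conjugates NEDD8), LCOR (a corepressor of nuclear receptors), introns of ZNF644 and MAPK10 (the kinase JNK3) and 2 intergenic stretches. These names were chosen after their values were seen. Apart from NINL, none of them passed the limma threshold.

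The tightest of these was the DLG2 circRNA (chr14:82812464-82812625, exonic), at 42.4, 41.2, 42.5 and 37.7 TPM in pools 10F, 10M, 20F and 20M of TC. It ranged from 0 to 21.7 TPM in the other libraries, where it was found in 10 of 16. The 31 other DLG2 circRNAs had 58.2 TPM in TC and 78.3 in the others (exact permutation p = 0.368, two-sided). The most abundant was the UBE2F circRNA (chr12:101890500-101897132, exonic), with 500.04 to 916 TPM in TC and 0 to 402 TPM elsewhere. The intronic MAPK10 circRNA (chr5:79271250-79274828) had 182 to 432 TPM in TC and at most 150.4 TPM elsewhere. The lower pair was SASH1 and SMAP1 (chr4:67075393-67108623, exonic), whose protein acts on Arf GTPases in vesicle traffic. SMAP1 had 20.1 to 41.2 TPM in TC and 45.6 to 286 TPM elsewhere, a log2 difference of -1.86 ± 0.62 (SE, limma adjusted p = 0.482).

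**Figure D3:**
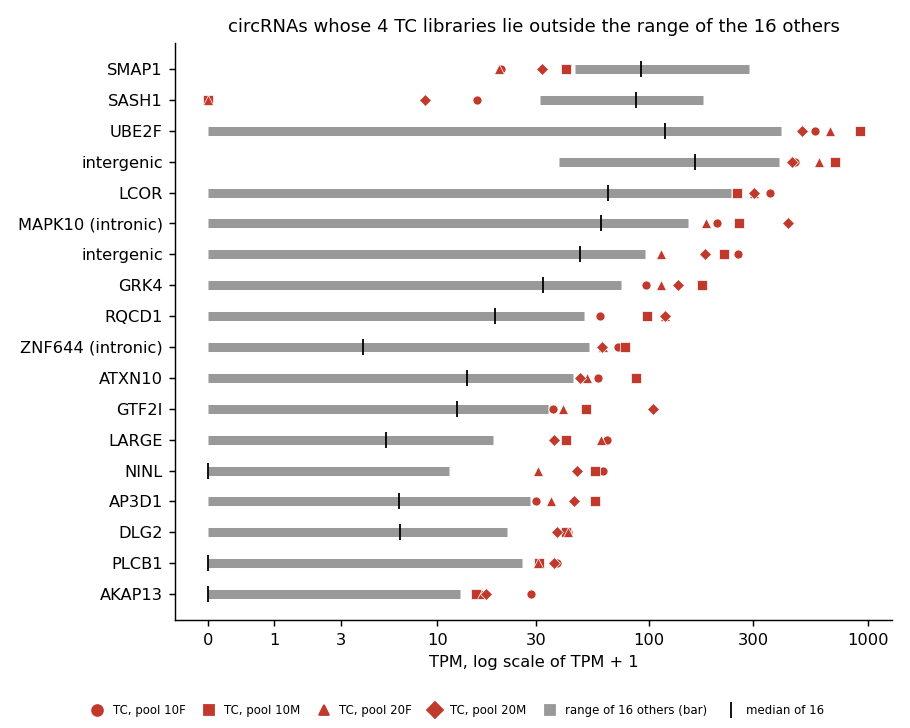
TPM (log scale of TPM + 1) of the 18 circRNAs whose 4 TC libraries (red markers, by pool) all lie outside the range of the 16 other libraries (grey bar, with the median as a black tick). SMAP1 and SASH1 at the top lie below the bar, and the 16 others lie above it, with DLG2 the narrowest cluster at 37.7 to 42.5 TPM.

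The 4 circRNAs listed by the study for TC came from genes that act on small GTPases or receptors. DENND1A activates Rab35, TBC1D19 carries a domain that switches Rab proteins off, AKAP13 activates RhoA, and GRK4 phosphorylates G protein-coupled receptors. Since they were picked as TC-enriched on these libraries, their levels are a description and not independent evidence. All 4 had higher means in TC. The study also measured the DENND1A circRNA by RT-qPCR and reported it as enriched in TC. The DENND1A circRNA (chr15:11988703-12000406, plus strand) was by far the most abundant, at 1841 TPM in pool 10F, 1621 in 10M, 1364 in 20F and 1080 in 20M of TC. Elsewhere it ranged from 0 to 1109 TPM with a median of 484, so that only TC of pool 20M fell inside the range of the others. The area means were 763 ± 427 TPM in PCC, 562 ± 150.0 in OC, 539 ± 283 in PFC and 327 ± 284 in PC (SD, n = 4 each), against 1476 ± 328 in TC. Neighbours in that order below TC differed by less than the larger of their SDs.

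The GRK4 circRNA (chr1:948043-951633, minus strand) was at 97.3, 175, 113 and 136 TPM in pools 10F, 10M, 20F and 20M of TC and at 0 to 74.5 TPM elsewhere, without overlap. The mean was 130.4 ± 33.7 TPM in TC and between 28.5 and 38.6 TPM in each of the other areas. The AKAP13 circRNA (chr7:65259708-65272626, plus strand) was at 28.3, 15.4, 16.5 and 17.4 TPM in the same order, which were 18, 3, 14 and 12 reads. It was listed at 0 in all 8 libraries of PFC and PCC and reached 13.01 TPM in PC and OC. The TBC1D19 circRNA (chr5:21488811-21491002, plus strand) was at 25.1, 28.3 and 40.6 TPM in pools 10F, 20F and 20M but listed at 0 in pool 10M, the shallowest library, and at most 7.10 TPM elsewhere. In the limma fit over all circRNAs none of the 4 passed, with adjusted p of 0.175 for AKAP13, 0.277 for TBC1D19, 0.547 for GRK4 and 0.737 for DENND1A. The sums of the other circRNAs of DENND1A, GRK4 and TBC1D19 were near those of the other areas, at 307 against 279, 147 against 122 and 19.8 against 17.2 TPM. For AKAP13 that sum was 1.51 TPM in TC and 11.8 in the others.

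**Figure D4:**
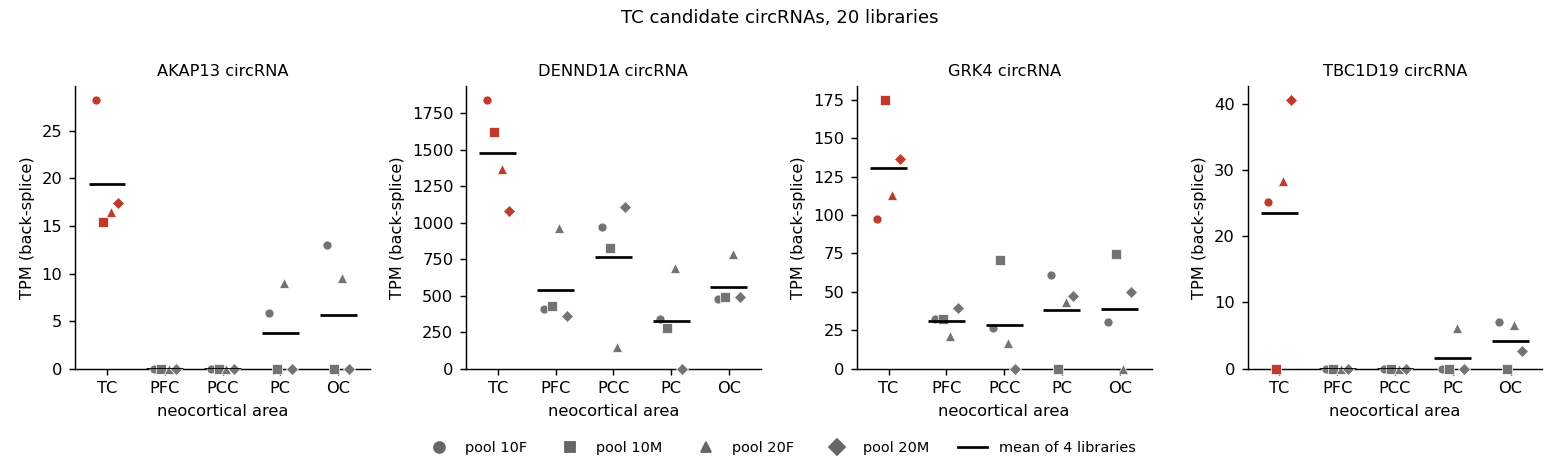
Level in TPM (linear axes from 0) of the AKAP13, DENND1A, GRK4 and TBC1D19 circRNAs listed for TC, in the 20 libraries by area, with TC in red, marker shapes for the 4 pools and a bar for the mean of 4 libraries. AKAP13 and GRK4 do not overlap with the other areas, TC of pool 20M is inside the range of the others for DENND1A, and TC of pool 10M is at 0 for TBC1D19.

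Against single areas, which share the 4 TC libraries, limma called 7 circRNAs (0.0749%) for PCC, 5 higher (0.0535%) and 2 lower (0.0214%) in TC, 1 (0.0107%) for PC, 1 (0.0107%) for OC and 0 for PFC, where 628 (6.72%) had an unadjusted p under 0.05. All are named here, having been chosen after their values were seen. The PC and OC calls were the same circRNA, from ERC2 (chr2:80379862-80484194), which encodes a protein of the presynaptic active zone. It was at 15.7, 61.8, 60.2 and 42.03 TPM in pools 10F, 10M, 20F and 20M of TC, at 0 in all 8 PC and OC libraries, and at a mean of 11.5 TPM in PFC and 12.4 in PCC. Its log2 difference from either area was 4.55 ± 0.80 (SE, limma adjusted p = 0.0463), and with the pools as a block the adjusted p was 0.0892 for PC and 0.107 for OC. Against PCC, the higher circRNAs came from NINL, RGS7, DLG2, WDR41 and an intron shared by ENSMMUG00000020236 and ENSMMUG00000009888, and the lower ones from SASH1 and MCCC1. Several of these set PCC apart rather than TC. RGS7 (chr1:216055234-216110689), which encodes a regulator of G protein signalling, had 65.9 to 83.7 TPM in TC and 0 in all PCC libraries, but 54.5, 50.4 and 42.6 TPM on average in PFC, PC and OC. MCCC1 (chr2:103655402-103659925), which encodes a subunit of a mitochondrial carboxylase, was listed at 0 in TC and at 21.6 ± 5.52 TPM (SD, n = 4) in PCC, and was also at 0 in all PFC and PC libraries. Outside PCC it was listed only in OC of pool 10F, at 1.18 TPM. MCCC1 thus met the filter only through PCC, where it was high, so its call is no support for a difference. With the pools as a block the intronic call was lost (adjusted p = 0.0787).

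The most abundant circRNAs of TC also had high means over the other neocortex, where circRNAs were not ranked. The 6 with the highest mean in TC came from exons of GDAP1L1 (4250 TPM), C6ORF142 (3467 TPM) and WDR41 (3245 TPM), an intron of YAF2 (2671 TPM) and 2 intergenic stretches on chromosomes 14 (2915 TPM) and 11 (2079 TPM). They were chosen for a high mean in TC, which favours a higher level there than elsewhere, so the levels are a description with no test. GDAP1L1 had 3460 TPM in the other areas, and the means of the others there were between 1353 and 1752 TPM. WDR41 (chr6:73699671-73701378) showed an uneven pattern across the cortex. It was at 2867, 2424, 3431 and 4260 TPM in pools 10F, 10M, 20F and 20M of TC, and at a mean of 3147 TPM in OC, 1545 in PC, 853 in PFC and 756 in PCC. The PCC mean came from pool 10M alone, at 3026 TPM, and PCC of pools 10F, 20F and 20M was listed at 0. C6ORF142 (chr4:53822249-53875750) had the reverse place for OC, with 668 TPM there against 3467 ± 1468 in TC and 2695 in PFC.

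When the levels of all circRNAs of a gene were summed, 7 of 4428 host genes (0.158%) passed in limma, 1 higher (0.0226%) and 6 lower (0.136%) in TC. The sums hold more reads than single circRNAs. The higher one was ORC3, a subunit of the origin recognition complex, with 9.42, 36.0, 33.0 and 23.2 TPM in pools 10F, 10M, 20F and 20M of TC. It was found in 3 of the 16 others, at up to 14.03 TPM, and the log2 difference was 3.30 ± 0.65 (SE, limma adjusted p = 0.027). ORC3 thus met the filter of 4 libraries only through TC, where it was high, so its p is no support for a difference. ZZEF1 had the smallest limma p of the lower ones. None of its 22 circRNAs was listed in any TC library, while all 16 others had some, between 4.75 and 91.9 TPM in sum and 683 reads in all (adjusted p = 0.00453). Its mean was 50.3 TPM in PCC, 47.2 in PC, 20.1 in PFC and 10.5 in OC. C5orf42, a gene of primary cilia, MYEF2, a repressor of the myelin basic protein gene, and ACBD6, which binds acyl-CoA, were also listed at 0 in all 4 TC libraries. Their sums elsewhere were 39.2 ± 37.9, 23.6 ± 21.3 and 20.5 ± 14.2 TPM (SD, n = 16), with adjusted p of 0.027, 0.0287 and 0.0326. C5orf42 and ACBD6 were each found in 15 of the 16 others. ATP2B2, the calcium pump of the plasma membrane, had 6.28 and 4.35 TPM in pools 10F and 20M and 0 in the others of TC, against 11.6 to 51.1 TPM elsewhere, a log2 difference of -2.80 ± 0.56 (SE, adjusted p = 0.027). DIXDC1 was at -4.36 ± 0.79 (SE, adjusted p = 0.0154), and all its TC level lay in the circRNA described above. By the exact permutation test, two-sided and unadjusted, p was 0.0173 for ZZEF1, 0.0452 for C5orf42, 0.044 for MYEF2 and 0.0109 for ACBD6. By the same test it was 0.00165 for ATP2B2 and 0.00433 for DIXDC1. The next host genes upward, ALDH18A1 (10.0 against 0.618 TPM), SSR1 (29.3 against 3.64), GPR143 (27.5 against 4.56) and PLXNA1 (29.6 against 3.35), did not pass, with adjusted p between 0.0803 and 0.155. ALDH18A1, like ORC3, was found in only 3 of the 16 others and met the filter through TC.

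Apart from ZZEF1, each of these host gene calls was lost in at least 2 of the fits that left out 1 TC library. The count was 8 without the TC library of pool 10F, 4 without 10M, and 1, which was ZZEF1, without 20F or without 20M. ZZEF1 kept an adjusted p between 0.0133 and 0.0425 in these fits. ZZEF1, C5orf42, MYEF2 and ACBD6 were at 0 in every TC library, so leaving 1 out could not change their log2 difference. For them these fits cannot tell whether a call rests on 1 library. Absence from TC was common among single circRNAs, as 2124 of the 9342 tested were found in no TC library. The matching count for host gene sums is not given here. Host gene sums were not fitted at equal depth.

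**Figure D5:**
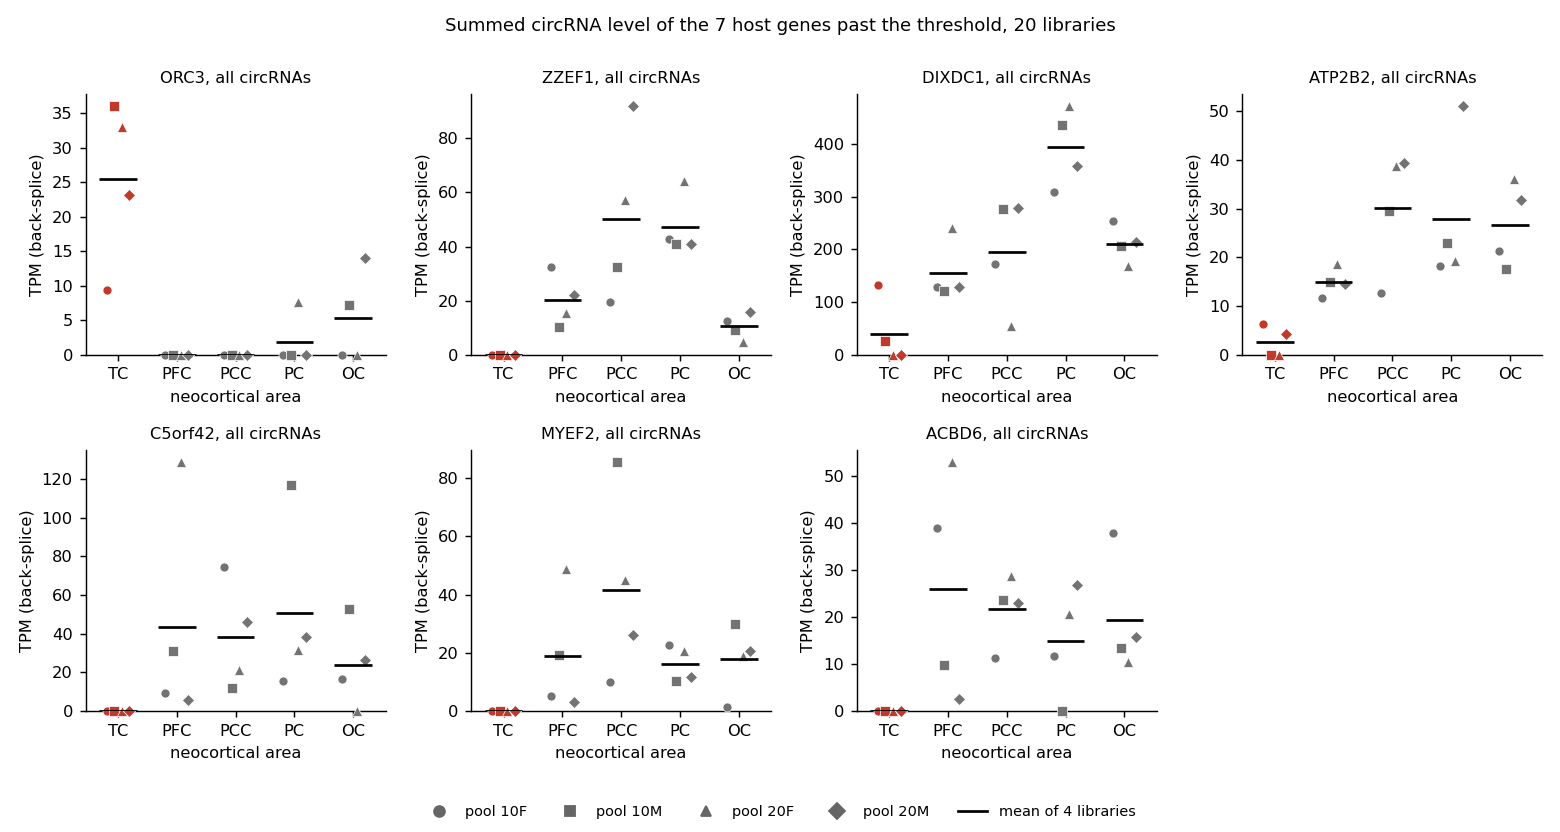
Summed level in TPM of all circRNAs of the 7 host genes past the threshold (linear axes from 0), in the 20 libraries by area, with TC in red, marker shapes for the 4 pools and a bar for the mean of 4 libraries. ORC3 is higher in TC, and ZZEF1, C5orf42, MYEF2 and ACBD6 are at 0 in all 4 TC libraries.

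Host genes were also grouped by function, and few of their circRNAs passed. The lists are described by their counts at an unadjusted limma p under 0.05, which 6.8% of all tested circRNAs reached, and by their median log2 difference, which was -0.11 over all tested circRNAs. Among genes of the synapse, 5 circRNAs were higher and 4 lower of 113 from presynaptic release genes, 3 and 5 of 100 from glutamate receptors and postsynaptic scaffolds, and 1 and 1 of 20 from the GABA synapse, with medians of -0.10, -0.19 and 0.35. The ERC2 circRNA led the presynaptic list upward, and that of RIMS2, another active zone gene, led it downward (-2.38 ± 0.82, SE, adjusted p = 0.502), with 20.4, 0, 7.08 and 10.2 TPM in pools 10F, 10M, 20F and 20M of TC and a median of 45.6 TPM elsewhere. DLG2 and DLG1, related scaffold genes, led the postsynaptic list in opposite directions. In the GABA list, GABBR2, a subunit of the metabotropic receptor, had 74.1 ± 40.2 TPM in TC and 29.3 ± 23.6 elsewhere (adjusted p = 0.727), and its 14 other circRNAs also summed to more in TC, 119 against 59.9 TPM (exact permutation p = 0.019, two-sided, unadjusted). GABRA4, a subunit of the ionotropic receptor, was listed in TC of pool 20F alone, at 8.26 TPM, against a median of 15.7 TPM elsewhere (adjusted p = 0.482).

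Channels gave 4 higher and 1 lower of 51 circRNAs for calcium and 2 and 0 of 51 for potassium and sodium, with medians of -0.06 and -0.29. The circRNA of CACNB4, a subunit of voltage-gated calcium channels, had 14.9 ± 13.4 TPM in TC and 1.74 ± 3.39 elsewhere (adjusted p = 0.547). That of NALCN, the sodium leak channel, which had been put in the calcium list, had 1.77 and 11.3 TPM (adjusted p = 0.5995). The 24 other circRNAs of KCNQ5, a potassium channel, summed to 74.6 TPM in TC and 34.2 elsewhere (exact permutation p = 0.0147, two-sided, unadjusted). Axon guidance and adhesion genes gave 5 and 2 of 108, with a median of 0.15, led upward by PLXNA1, which met the filter only with TC counted.

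Among regulators, 5 circRNAs were higher and 2 lower of 107 from regulators of Rab GTPases, with a median of -0.22. TBC1D19, a candidate of the study, had the smallest p upward in this list. Downward, a circRNA of RABGAP1L, a Rab regulator, was listed in TC of pool 20M alone, at 2.90 TPM, against a median of 16.2 TPM elsewhere (adjusted p = 0.421). Protein kinases gave 7 and 11 of 294 with a median of -0.05, and among them was STK39, the only member of any list that passed the adjusted threshold. Ubiquitin ligases and proteases gave 10 and 4 of 235 (median -0.11). The circRNA of USP37 was at 18.8, 56.6, 0 and 8.70 TPM in pools 10F, 10M, 20F and 20M of TC and was found in 1 of the 16 others, so that it met the filter mostly through TC and no test is given. That of USP33, also a deubiquitinase, was at 3.14 TPM in pool 10F and 0 in the rest of TC against a median of 28.8 TPM (adjusted p = 0.336). RNA-binding proteins gave 5 and 3 of 145 (median -0.16). LARP4B of that list had 23.4 ± 22.3 TPM in TC and 3.49 ± 7.63 elsewhere (adjusted p = 0.547), and its 7 other circRNAs summed to 208 against 77.5 TPM (exact permutation p = 0.00206, two-sided, unadjusted). Genes of chromatin and transcription had the lowest median, -0.36, with 8 higher and 17 lower of 304. The lowest p there belonged to ZFPM2, a cofactor of GATA factors, which was at 254 TPM in pool 20M and listed at 0 in the other TC libraries, against a median of 231 TPM elsewhere (adjusted p = 0.125).

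CircRNAs of marker genes for cell types were summed in each library as a check on the tissue. Excitatory neuron genes gave 282 to 834 TPM in TC and 189 to 719.6 elsewhere, with 8 of 11 genes found in TC. FEZF2, NRGN and TBR1 were at 0. Inhibitory neuron genes gave 46.3 to 126 against 30.8 to 171 TPM, with 2 of 11 genes found in TC and GAD1, GAD2, PVALB, SST and VIP at 0. Astrocyte genes gave 422 to 588 against 49.3 to 713 TPM, with GFAP and AQP4 at 0. Oligodendrocyte precursor genes gave 74.3 to 644 against 0 to 377 TPM, all of it in TC from 1 of 5 genes, with CSPG4 and SOX10 at 0. Microglial genes gave 0 to 15.7 against 0 to 21.7 TPM, with CSF1R and P2RY12 at 0, and vessel genes 0 to 92.6 against 0 to 45.0 TPM, with CLDN5 at 0. Cerebellar genes gave 0 to 42.03 against 0 to 51.3 TPM, and 4 genes of the hippocampus had no circRNA in the table. Many defining markers form no ring that was listed, so these sums say little of cell numbers, and fewer cells of a type and less RNA per cell cannot be told apart in such tissue.

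The 14 oligodendrocyte genes, with MBP, MOBP and MAG among them, were the one list with circRNAs elsewhere and none in TC. None had a circRNA listed in any TC library, while 10 of them had one in the other areas, at 0 to 63.9 TPM in sum and a mean of 23.4 ± 18.7 TPM (SD, n = 16). The exact permutation p was 0.02, two-sided, and 0.18 after adjustment over the 9 marker lists. Being listed in no TC library also held for 2124 of the 9342 tested circRNAs. The part of this list in the lower level of other circRNAs in TC was not tested. Fewer genes were found in TC than in the other areas in further lists too. The counts were 2 against 6 for inhibitory neurons, 1 against 4 for oligodendrocyte precursors and 4 against 6 for astrocytes, and 8 in both for excitatory neurons. They set 4 libraries against 16.

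At the level of libraries, TC differed in how reads were spread over circRNAs. The 10 circRNAs with most reads were picked anew in each library. They took 10.96 ± 0.29% of all back-splice reads in TC (SD, n = 4) and 9.23 ± 1.05% in the others (SD, n = 16). The TC libraries lay between 10.5 and 11.2% and the others between 7.70 and 11.6% (exact permutation p = 0.00372, two-sided, adjusted p = 0.0297 over 8 measures). The 6 libraries of other areas with no more reads than the deepest TC library (195477) had 11.6% in OC and 11.5% in PCC of pool 10M, 9.88% in OC of pool 20F, 9.36% in PCC of pool 20M, 8.55% in PCC of pool 10F and 8.32% in PC of pool 20M, and the part of depth in the difference was not tested. None of the other 7 measures passed after adjustment. Exonic circRNAs took 75.7 ± 0.75% against 76.6 ± 0.65% of reads (p = 0.0413, adjusted p = 0.165, exact permutation test), and the read-weighted median distance between the joined ends was 3706 ± 254 against 4514 ± 802 bases (p = 0.0669, adjusted p = 0.178, exact permutation test). TC libraries held 4594 to 6163 circRNAs against 3563 to 10927, and 4084 to 4673 against 3397 to 6244 after 58037 reads were drawn from each. The median Pearson r of log2 values across the 9342 circRNAs, which are not independent replicates, was 0.45 over the 6 pairs of TC libraries and 0.45 over the 64 pairs of TC with another area, of which those with OC had a median of 0.48.

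TC had 13160 circRNAs in all, 1087 of them in all 4 libraries. No circRNA that was found in all 16 other libraries was missing from all 4 of TC. Of the 3138 found in TC and no other neocortical area, 97.5% came from 1 library, 71 from 2 and 9 from 3. These were 23.8% of the circRNAs of TC. Each of the other areas had more circRNAs of its own, 3264 to 6911 or 24.6 to 34.0% of those found there, and 93.5 to 97.3% of them also came from 1 library. Those 9, which were too rare to be tested, included circRNAs of FLNA, KCNH1, BRE, DPYD and ENSMMUG00000017896, an intronic one of RPS6KC1 and 2 intergenic ones. They are named after their values were seen. That of KCNH1, a potassium channel gene (chr1:159301964-159305838), was at 26.7 TPM in pool 10F, 9.43 in 20F and 29.0 in 20M, and was listed at 0 in 10M.

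Age was compared within TC, 2 pools aged 20 years against 2 aged 10 years, where age and animals cannot be told apart within a sex. By limma 0 circRNAs passed, with 607 (6.5%) at an unadjusted p under 0.05, and for 0 did the age difference in TC differ from that in the other areas, with 539 (5.77%) at an unadjusted p under 0.05. NINL was at 58.9 TPM on average at 10 years and 38.5 at 20 years, a log2 difference of -0.62 ± 1.29 (SE, adjusted p = 1.00). DENND1A was at 1731 and 1222 TPM (-0.51 ± 1.79, adjusted p = 1.00), and DIXDC1 at 78.8 and 0 TPM (adjusted p = 0.472).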

How the data were processed

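RNA of each area was pooled from 2 animals of one sex and age, depleted of ribosomal and poly(A) RNA, and treated with RNase R. The authors trimmed reads with cutadapt, aligned them with BWA, called junctions of at least 2 reads with CIRI2, and deposited 52828 circRNAs with values named TPM, made with the normalization method of DESeq. The genome build is not given in the sources used here. All deposited TPM values were whole multiples of the worth of 1 read (within 0.1 read), so reads were recovered by division.

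CircRNAs with at least 3 reads in at least 4 of the 20 libraries (9342 of 43868 found) were tested with limma 3.58.1 in R 4.3.3 on log2(TPM + 1.775), the pseudocount being the median of the libraries' smallest values above 0. Tests were two-sided with Benjamini-Hochberg adjustment, and exact permutation tests compared absolute differences in means. Host gene sums were tested alike. No count model was the main test, and voom on recovered reads was an alternative. Fits were tested on simulated data, where limma called changed circRNAs in the right direction, but found few of them when the spread between libraries was wide and called more unchanged ones than the threshold allows when it was narrow. Adjusted p-values near the threshold are thus uncertain.

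For naming, 10 circRNAs higher and 10 lower were taken by rank of limma p among those with that direction in all 4 pools. The 4 candidates of the study, matched by position, the 6 most abundant circRNAs of TC, and the leading circRNA of each gene list and 5 host genes in each direction were added. Members and lists were chosen with earlier results of these data known. Some genes and 1 gene list are not reported here. The same animals supply every area, so pools were tried as a block. Deviations from area means correlated by 0.0374 on average within pools (40 pairs) and by -0.0124 between pools (120 pairs). Other alternatives varied the pseudocount, filter, scaling, depth and libraries left out.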

Additional observations from a re-analysis of the deposited data

Results flagged for a closer look

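In groups of 4 libraries, 1 value was taken to stand apart when its gap to the nearest other value exceeded Dixon's 95% critical share of the whole range, which chance alone meets in about 1 in 20 groups. Of 42 sets of 4 TC values checked, 6 did so. Among circRNAs, TC of pool 10F stood apart at 28.3 TPM for AKAP13, at 212 TPM for STK39 and at 26.7 TPM for ANKRD32, and TC of pool 20F at 4.72 TPM for KHDRBS3. For STK39, ANKRD32 and KHDRBS3 the remaining TC libraries were listed at 0, so that any value above 0 stands apart and the rate of chance does not apply. TC of pool 20M stood apart in 2 of the measures of libraries. Intronic circRNAs took 8.12% of its reads, against 7.05 to 7.13% in the other TC libraries, and the read-weighted median distance between joined ends was 3329 bases, against 3799 to 3888. Both values lay within the range of the 16 other libraries. No cause was tested for any of them.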

How the results depend on the processing

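Leaving out 1 TC library or 1 pool at a time gave between 0 and 8 called circRNAs, and leaving out 1 TC library gave between 1 and 8 host genes. The 3 calls became 5 without PCC, 1 with size factors, 0 with a pseudocount of 0.1775, 9 with no filter, 0 with voom on recovered reads (434 at an unadjusted p under 0.05) and 1 with reads drawn to 58037 per library, an alternative chosen after seeing the data. The exact test gave 113 circRNAs on log2 values and 132 with the same total in every library, in place of 185. The calls against PC and OC fell to 0 with the pools as a block and to 0 with size factors. Without the 3 libraries with over 95% clean reads, 3 host genes passed, and the difference in exonic reads was -0.711 points (p = 0.0811, exact permutation test). With the pools as a replicate block 3 circRNAs and 7 host genes passed, as without it. In limma only the calls against single areas named in the report changed with the block. The exact test within pools gave 168 circRNAs, 141 of them among the 185. The median log2 difference of all circRNAs was -0.11, and it was -0.20 with size factors, -0.21 with equal totals and 0.24 with voom. NINL lost its call in 10 of 24 alternatives, SASH1 in 5 of 25 and STK39 in 17 of 25. Of 1240 values for the 58 named circRNAs and host genes, 0 were reversed, 56 no longer passed and 20 newly passed. The cause of these changes was not tested. Depth limits low values, as 1 read was worth 5.15 TPM in TC of pool 10M and 1.18 to 1.57 TPM in the other TC libraries. CircRNAs with a mean of at least 50 TPM were listed at 0 in 9.52 to 13.1% of cases in TC and in 5.36 to 11.3% elsewhere.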
